A study of Homo sapiens with 3 samples.

Results

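Genes of the AP-1 and immediate early response were followed in MCF10A cells. This breast epithelial line was immortalized from human tissue without being transformed. By the methods of the study, MCF10A cells grew in medium with a mammary epithelial growth supplement and cholera toxin. The levels are therefore those of cells in growth medium and not of cells kept without stimulation. The 10 genes were FOS, FOSB, FOSL1, FOSL2, JUN, JUNB, JUND, ATF3, EGR1 and IER2, chosen by symbol out of the 62754 genes of the deposited table and matched by Ensembl identifier in GENCODE release 44, which holds 62700 of them. The cells had been transduced with the Retro-X Tet-One vector without an inserted gene and selected with puromycin, and no doxycycline was given. RNA-seq was measured in 3 replicates of this 1 condition, sampled 27 h after seeding by the methods of the study. No treated or stimulated group therefore exists to compare with. The study used the transcriptome to decide which enzymes its model of MCF10A metabolism should keep, with a cutoff of 1 TPM. Nothing in the labels says that the replicates came from separate cultures, and the spread between them may be technical.

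AP-1 is a dimeric transcription factor of the basic leucine zipper class. JUN proteins pair with each other or with FOS proteins, whereas FOS proteins need a JUN partner, and the dimers bind the palindromic AP-1 site or the related cAMP response element. FOS, FOSB, EGR1, ATF3, JUNB and IER2 are classical immediate early genes: growth factors and stress switch them on within minutes through MAP kinases and factors already present in the cell, and their mRNAs are short-lived. FOSL1 and FOSL2 follow more slowly and persist in growing epithelial cells, and JUND is commonly expressed without stimulation.

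The promoter windows of FOS, FOSB and EGR1 are shown because FOS and FOSB were the neighbours in level with the largest fold between them, and because EGR1 was the only one of the genes with a CArG box, the site of serum response factor, in its window. The sequences are from RefSeq on GRCh38.p14, plus strand, from 150 to 11 bases before the start of the gene, with TGACGT on either strand, TATAAA and the CArG box in capitals. They lie at chr14:75278678-75278817 for FOS, chr19:45467846-45467985 for FOSB and chr5:138465329-138465468 for EGR1.
FOS: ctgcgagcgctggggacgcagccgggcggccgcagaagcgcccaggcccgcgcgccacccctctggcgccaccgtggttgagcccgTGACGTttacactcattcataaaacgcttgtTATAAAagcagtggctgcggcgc
FOSB: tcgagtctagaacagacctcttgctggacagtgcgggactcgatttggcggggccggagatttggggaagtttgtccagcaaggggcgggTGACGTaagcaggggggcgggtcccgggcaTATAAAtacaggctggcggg
EGR1: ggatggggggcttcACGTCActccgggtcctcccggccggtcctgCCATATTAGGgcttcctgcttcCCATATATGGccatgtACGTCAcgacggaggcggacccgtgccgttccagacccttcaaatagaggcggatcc

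FOS and FOSB carried the same arrangement of both elements. TGACGT began 64 bases before the start in FOS and 60 bases in FOSB, and TATAAA began 33 and 30 bases before it. In EGR1 the CArG boxes began 105 and 83 bases upstream, between copies of TGACGT on the reverse strand at 136 and 67 bases. The whole RefSeq windows ran over 300 bases, from 250 before to 50 after the start. For 9 of the genes 10 windows were found, ATF3 having 2 and FOSL1 none. TGACGT on either strand was in 5 of these 10 windows (EGR1, FOS, FOSB, FOSL2 and JUND), against 7.98% of all 35116 windows, and TATAAA on either strand was in 4 (ATF3, FOS, FOSB and JUNB), against 11.5%. Both of these motifs were added after the sequences were seen.
The full cAMP response element TGACGTCA, which contains TGACGT, was in 1 window, that of JUND, against 1.85% of all windows. The AP-1 site TGANTCA was in that of FOSL2 (7.71% of all windows), and the CArG box in that of EGR1 (1.29%). The GC box GGGCGG, on either strand like all motifs here, was in 7 of the 10 windows (45% of all), and the EGR site GCGTGGGCG in 0 (0.795% of all). A match describes letters and not binding, and a missing match says only that these letters are not in the window.

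AU-rich elements in the 3' UTR mark many short-lived mRNAs, and the longer nonamer TTATTTATT is a form bound by ZFP36 proteins. It was found in the 3' UTR of FOS and of FOSL2, 2 of the 10 genes, against 8.44% of 19550 protein-coding genes, counted on the canonical transcripts of GENCODE. The sites are shown with the nonamer in capitals, on GRCh38, plus strand, at chr14:75282062-75282086 for FOS and chr2:28416357-28416381 for FOSL2.
FOS: tttttaatTTATTTATTaagatgga
FOSL2: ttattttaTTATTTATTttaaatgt

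The pentamer ATTTA, the core of such elements, was in 9 of the 10 UTRs, against 67.5% of all genes, with IER2 the exception. Per length, FOS held the most at 6.20 copies per kb and JUNB followed at 4.0, while the median of the 10 genes was 1.62 and that of all genes 1.5. FOSL2 had the most copies, 9, and the longest of these UTRs. The genes also had few exons. JUN, JUNB and JUND have 1 exon each, as do 4.23% of protein-coding genes, EGR1 and IER2 have 2, and the median was 3 exons against 8.

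The deposited unit, TPM, divides the reads of a gene by its transcript length and scales each replicate to a total of 1000000, so that levels can be compared between genes per length. Multiplied by length, 100% of the values were whole multiples of 1 step within 0.001. If that step is 1 read, the totals were 15273329, 15446347 and 11166546. Replicate 3 stood apart: RN7SL1 and RMRP, out of a list of 5 short non-coding RNAs, took 54401, 63183 and 170835 TPM together. The other 3, RN7SL2, RPPH1 and RN7SK, were listed at 0 in every replicate although cells use them in general, so that a gene listed at 0 cannot be read as not expressed. TPM share a fixed total, and the median log2 ratio of replicate 3 over the mean of replicates 1 and 2 was -0.24 over the 8804 genes that averaged 10 TPM or more. Levels were therefore also compared after dividing each replicate by its median ratio over those genes, with factors of 1.06, 1.05 and 0.895. All 6 markers of basal mammary epithelium were above 1 TPM, with KRT5 at 6612 TPM. Of 4 luminal markers, the keratins KRT18 and KRT8 were at 413 and 118 TPM, while the receptors ESR1 and PGR were at 0.0345 and 0.00485 TPM. Above 1 TPM were 2 of 4 fibroblast, 1 of 2 endothelial and 1 of 2 leukocyte markers. Their summed levels lay between 13.6 and 14.8, 1.57 and 2.0, and 1.15 and 2.96 TPM in this order, with COL1A2 listed at 0. In bulk RNA, fewer cells that express a gene and less RNA per cell cannot be told apart.

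By the mean of the replicates, 9 of these 10 genes reached 1 TPM and 8 reached 10 TPM. FOSL1 was the highest at 106 TPM and ATF3 the lowest at 0.864 TPM, a 122-fold range. The 8 genes above 10 TPM lay within 4.02-fold of each other. All 10 genes were lowest in replicate 3 in the deposited TPM. Genes at large were lower there too, with a median log2 ratio of -0.24 over 8804 genes. After median ratio scaling, which brought that median to -0.0003, 9 of the 10 were lowest there and EGR1 was highest. The 9 include FOSB and ATF3, with 12 and 6 reads in replicate 3, and FOS at 26.7, 26.1 and 25.6 TPM. The share of all genes lowest in replicate 3 was not counted.

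**Figure D1:**
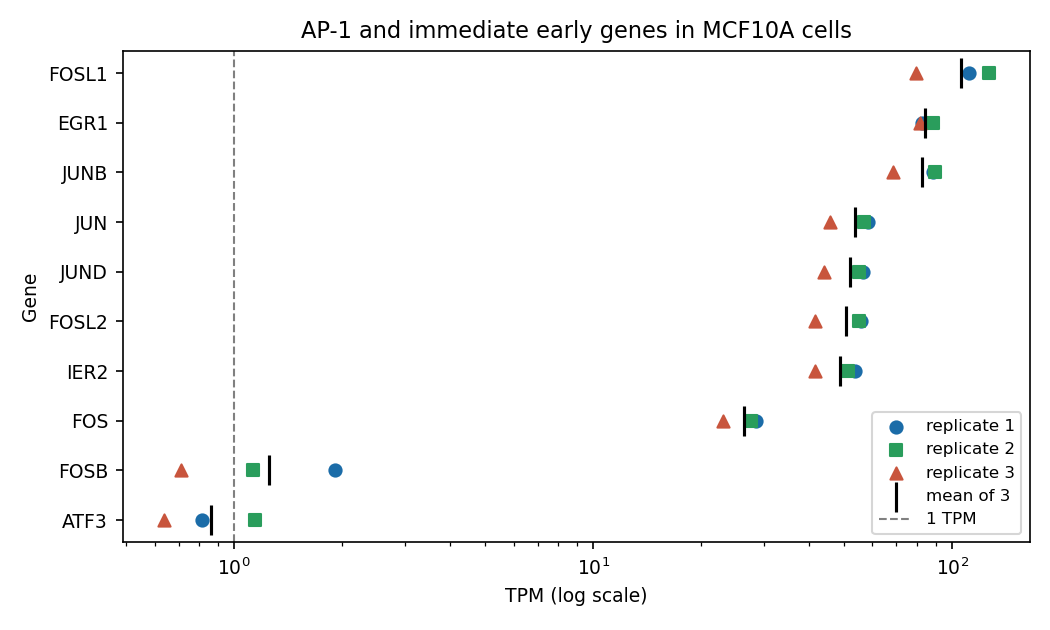
TPM of the 10 genes on a log axis in each of 3 replicates, with the mean as a black bar and the cutoff of 1 TPM as a dashed line. The 8 higher genes sit between 22.9 TPM (FOS in replicate 3) and 126 TPM (FOSL1 in replicate 2), whereas FOSB and ATF3 lie on both sides of the cutoff.

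Among the FOS family, FOSL1 (FRA-1) was the leading transcript, FOSL2 (FRA-2) came next, FOS followed, and FOSB was near the cutoff. FOSL1 (ENSG00000175592, chr11:65892049-65900573, minus strand) was measured at 111, 126 and 79.3 TPM in replicates 1, 2 and 3, that is 106 ± 24 TPM (SD, n = 3). Replicate 3 was the low one, and the range was the widest of the genes above 10 TPM. Its mean was above that of 87.1% of the 11360 protein-coding genes at or above 1 TPM.
FOSL2 (ENSG00000075426, chr2:28392448-28417317, plus strand) was measured at 55.6, 54.9 and 41.4 TPM, or 50.7 ± 7.98 TPM (SD, n = 3). Replicates 1 and 2 were close to each other and replicate 3 was lower. The same pattern held for FOS (ENSG00000170345, chr14:75278826-75282230, plus strand), the prototype of the family, with 28.4, 27.5 and 22.9 TPM and a mean of 26.3 ± 2.92 TPM (SD, n = 3). After scaling, FOS was at 26.7, 26.1 and 25.6 TPM, a spread that 93.7% of genes with at least 10 TPM exceeded. FOSL1 was above FOSL2 and FOSL2 above FOS in every replicate, by 4.02-fold for FOSL1 over FOS and 1.93-fold for FOSL2 over FOS in the means.
FOSB (ENSG00000125740, chr19:45467995-45475179, plus strand) had 1.91, 1.13 and 0.710 TPM from 38, 23 and 12 reads, or 1.25 ± 0.611 TPM (SD, n = 3). Replicates 1 and 2 were above the cutoff and replicate 3 below it. The exact Poisson 95% intervals, which cover counting error only, were 1.35 to 2.62, 0.714 to 1.69 and 0.367 to 1.24 TPM, so that in replicates 2 and 3 the side of the cutoff was not resolved at this depth. FOS was 21.0-fold higher than FOSB in the means, and the ranges of both genes did not overlap. Any part of the promoter elements printed above in these levels was not tested.

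Together the FOS family amounted to 197, 210 and 144 TPM. FOSL1 took 57.2% ± 2.71 of this sum, FOSL2 27.7% ± 1.34, FOS 14.5% ± 1.39 and FOSB 0.666% ± 0.264 (SD, n = 3 each). The shares of FOSL1, FOSL2 and FOS kept apart from each other in all replicates.

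The JUN family was more even. JUNB (ENSG00000171223, chr19:12791486-12793315, plus strand), often the weaker activator of the family, was the highest at 88.6, 89.6 and 68.6 TPM, or 82.3 ± 11.8 TPM (SD, n = 3). An exonic stretch of 14.2% of JUNB lies opposite HOOK2, which had 12.7, 20.3 and 12.5 TPM. Whether the counting used strand is not given in the sources used here. It is therefore not known whether reads of JUNB and HOOK2 were told apart there.
JUN (ENSG00000177606, chr1:58776845-58784048, minus strand), which encodes c-Jun, was measured at 58.3, 57.0 and 45.5 TPM, or 53.6 ± 7.02 TPM (SD, n = 3). JUND (ENSG00000130522, chr19:18279694-18281622, minus strand) had 56.6, 55.0 and 44.1 TPM, or 51.9 ± 6.81 TPM (SD, n = 3). JUN and JUND were both lowest in replicate 3, as all 10 genes were in the deposited TPM, and were 1.03-fold apart in the means. JUN was the higher in every replicate, by 1.75 ± 0.271 TPM, although the ranges of both genes overlapped. JUNB was 1.53-fold above JUN, with ranges that did not overlap.
The JUN family summed to 204, 202 and 158 TPM, of which JUNB took 43.8% ± 0.589, JUN 28.6% ± 0.268 and JUND 27.6% ± 0.324 (SD, n = 3 each). The sum of the FOS family over that of the JUN family was 0.969, 1.04 and 0.913, with a mean of 0.974 ± 0.0645 (SD, n = 3). The families thus held about equal transcript levels, with neither the higher in all replicates.

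ATF3, a stress-induced repressor that can pair with JUN proteins, was the one gene with a mean below the cutoff. ATF3 (ENSG00000162772, chr1:212565334-212620777, plus strand) had 0.813, 1.14 and 0.637 TPM from 9, 13 and 6 reads, or 0.864 ± 0.257 TPM (SD, n = 3). Its exact Poisson 95% intervals of 0.372 to 1.54, 0.608 to 1.95 and 0.234 to 1.39 TPM all contained 1 TPM. ATF3 was thus detected, but neither its side of the cutoff nor a difference between replicates was resolved at this depth.

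EGR1 and IER2 are immediate early genes outside the AP-1 families. EGR1 (ENSG00000120738, chr5:138465479-138469303, plus strand), a zinc finger factor induced by serum and growth factors, was measured at 82.2, 88.7 and 81.3 TPM, or 84.1 ± 4.06 TPM (SD, n = 3). It varied least of the 10 genes in the deposited TPM, and its mean was above that of 83.1% of expressed protein-coding genes. After median ratio scaling it was at 77.2, 84.3 and 90.8 TPM and no longer the steadiest.
IER2 (ENSG00000160888, chr19:13150411-13154911, plus strand), a growth factor-induced gene, had 53.6, 51.2 and 41.6 TPM, or 48.8 ± 6.34 TPM (SD, n = 3). Replicate 3 was the low one again. A stretch of 44.8% of the exonic bases of IER2 lies opposite the non-coding gene ENSG00000267598, which had 1.26, 1.71 and 0.592 TPM. Whether the counting told reads of both apart there is not known either. The TPM of IER2 rests on a longest transcript of 2933 bases, where the canonical one has 2110. With canonical lengths for all genes, IER2 was at 55.3 TPM and above JUN, JUND and FOSL2, which were at 43.7, 42.2 and 41.2 TPM.

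In order of the means the genes ran FOSL1, EGR1, JUNB, JUN, JUND, FOSL2, IER2, FOS, FOSB and ATF3. Of the 9 pairs of neighbours, 5 kept their order in every replicate and 3 had ranges that did not overlap, those of JUNB over JUN, IER2 over FOS and FOS over FOSB. IER2 was above FOS by 22.5 ± 3.42 TPM and FOS above FOSB by 25 ± 2.42 TPM (SD of the differences, n = 3). FOSL1 was above EGR1 in 2 of 3 replicates, by 21.6 ± 20.9 TPM on average, and EGR1 above JUNB in 1 of 3, by 1.79 ± 9.81 TPM. EGR1 and JUNB were therefore not separated beyond their spread, and FOSL1 exceeded EGR1 by barely more than the SD, with replicate 3 the other way. JUND was above FOSL2 in every replicate, but by 1.21 ± 1.31 TPM, which is within the SD. FOSL2 and IER2 differed by less than the SD too, at 1.88 ± 1.95 TPM, and so did FOSB and ATF3, at 0.385 ± 0.62 TPM. An exact two-sided sign-flip test over 3 pairs cannot give a p below 0.25, so no order here can pass a threshold of 0.05 by replicates.

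Counting error alone did not account for all of the spread between replicates. The reads of each gene were compared across the 3 replicates with a chi-square test against equal TPM, with Benjamini-Hochberg adjustment over the 15802 genes with at least 15 reads. The test covers counting error only and says nothing of conditions. It called 7 of the 10 genes (FOSB, FOSL1, FOSL2, JUN, JUNB, JUND and IER2), where 54.3% of all genes tested were called, and 77.1% of the 5754 genes with as many reads as the 8 genes above 10 TPM, of which 6 were called. With the replicates scaled by the median ratio, 3 of the 10 genes were called, FOSL1, FOSL2 and EGR1, against 31.2% of all genes and 38.1% of those with as many reads. The counts for the AP-1 and immediate early genes thus lay near those of genes at large.
FOSL1 was called under both scalings. After scaling it was at 105, 120 and 88.6 TPM, so that replicate 2 was the highest and replicate 3 the lowest, and 8.20% of genes with at least 10 TPM had a larger spread. It was also the 1 gene called between replicates 1 and 2 alone, where 21.3% of all genes were, with 3 of the 10 at an unadjusted p under 0.05. FOSL2, at 52.3, 52.2 and 46.3 TPM after scaling, was not called without replicate 3, nor was EGR1 without replicate 1 or replicate 3.
FOSB had the largest drop in replicate 3, with a log2 ratio over the mean of replicates 1 and 2 of -1.10 as deposited and -0.85 after scaling, and was called in the first case only. FOS, JUN, JUNB, JUND and IER2 had ratios between -0.38 and -0.28 as deposited, and between -0.13 and -0.04 after scaling. EGR1 was at -0.07 and, after scaling, at 0.17, the 1 gene that lay above its level in the other replicates. The short non-coding RNAs RN7SL1 and RMRP moved the other way, with deposited ratios of 1.51 and 1.79. Their part in the ratios of the 10 genes beyond the scaling was not tested.

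**Figure D2:**
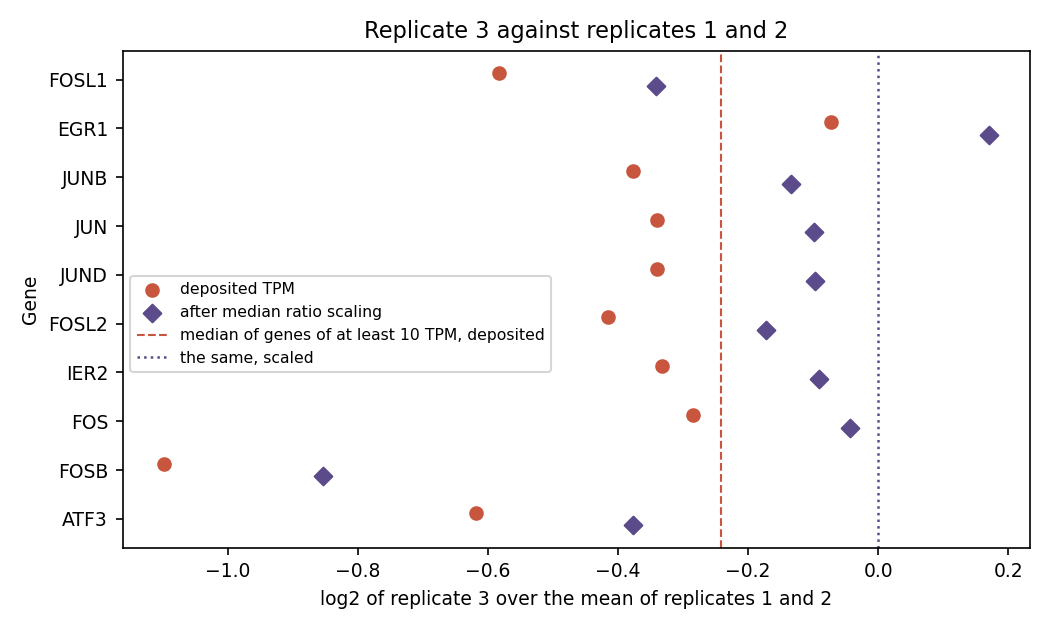
log2 ratio of replicate 3 over the mean of replicates 1 and 2 for each gene, in deposited TPM (circles) and after median ratio scaling (diamonds), with the median of 8804 genes of at least 10 TPM as lines. Deposited ratios run from -1.10 (FOSB) to -0.07 (EGR1), and after scaling EGR1 alone lies above 0, at 0.17.

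The SD of log2(TPM + 1) between replicates had a median of 0.19 over the 10 genes and of 0.16 over the 8804 genes with at least 10 TPM. After scaling the medians were 0.088 and 0.094. No test was made of these medians, and single genes lay on either side of them. FOSB had the largest value at 0.39 and FOSL1 the next at 0.34, while EGR1 had 0.07.

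**Figure D3:**
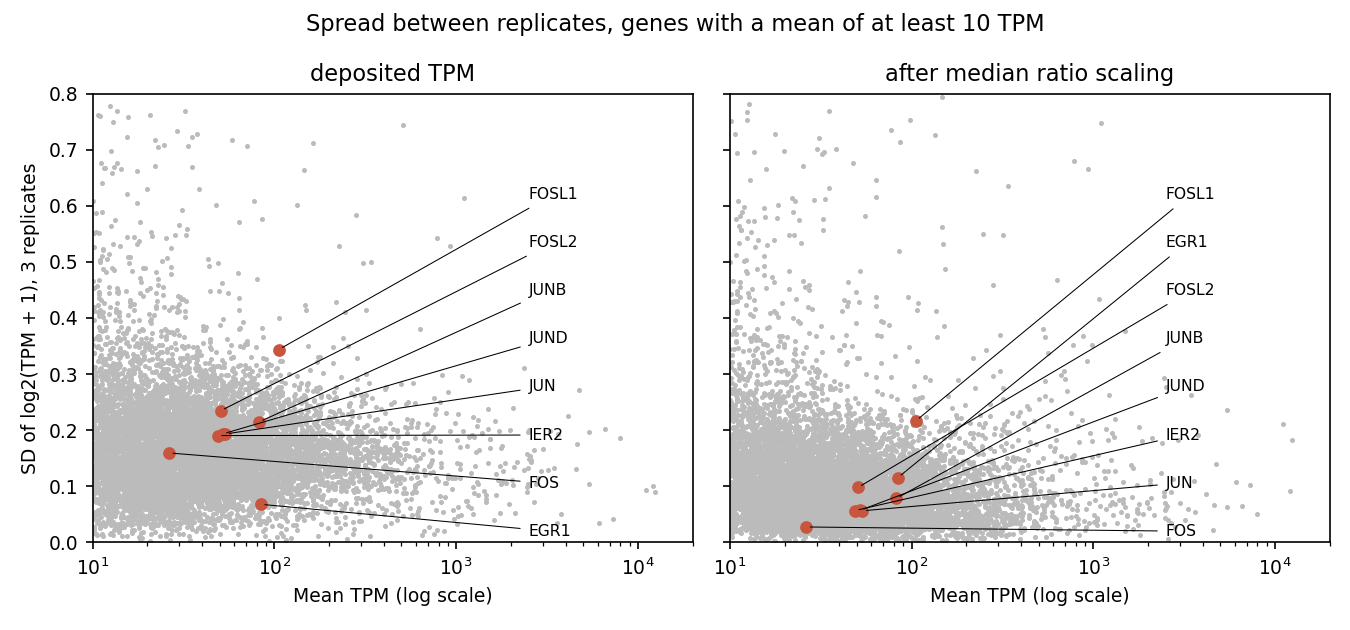
SD of log2(TPM + 1) over 3 replicates against mean TPM on a log axis for the 8804 genes averaging 10 TPM or more (grey, with the axis ending at 0.8) and the 8 genes described here above that level (red), as deposited (left) and after median ratio scaling (right). FOSL1 stands highest of the 8 in both panels, EGR1 is lowest on the left and FOS lowest on the right.

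The genes whose pattern over the 3 replicates was nearest to the median of the 8 genes were looked for among 8356 protein-coding genes, by the distance between their log2 deviations. They were TP53BP2 (60.5, 59.2 and 47.4 TPM), RBL2 (33.0, 32.3 and 25.7 TPM) and DDX41 (79.2, 77.7 and 62.4 TPM), with distances of 0.00512, 0.00562 and 0.00562. A total of 664 genes, 7.95%, were as near as the median member of the group or nearer. With 3 points per gene, likeness of this kind describes the replicates more than the genes.

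Of 30 other immediate early genes, 24 were at or above 1 TPM by the mean and 18 at or above 10 TPM. The highest were MCL1, a survival factor of the BCL2 family, at 598 ± 61.6 TPM, the MAP kinase phosphatase DUSP1 at 196 ± 23.3 TPM and IER3 at 149 ± 23.5 TPM (SD, n = 3 each). These 3 genes also exceeded FOSL1 and EGR1 in the means, whereas 13 of the 30 were above FOS, 23 above FOSB and 24 above ATF3. The order against JUNB (4 of 30 above it) and against JUN, JUND, FOSL2 and IER2 (9 each) put these genes in the upper part of the list.
GEM, a small GTPase of the list, lay on both sides of the cutoff like FOSB and ATF3, with 0.609, 1.35 and 1.64 TPM. The 6 genes of the list below 1 TPM, named because of their values, were KLF2, ARC, NR4A3 and the EGR1 paralogs EGR2, EGR3 and EGR4, with means from 0.0588 (NR4A3) to 0.273 TPM (KLF2). EGR1, at 84.1 TPM, was thus the one EGR gene above the cutoff. The nuclear receptors NR4A1 and NR4A2 were just above it at 1.47 and 1.25 TPM.
Of 25 tested, 13 were called against equal TPM and 4 after scaling (MCL1, IER3, CCN1 and ZFP36), beside 54.3% and 31.2% of all genes. The median log2 ratio of replicate 3 was -0.25 and, after scaling, 0.00 to 2 decimals. For the 8 AP-1 and immediate early genes above 10 TPM it was -0.34 as deposited. After scaling the ratios of these 8 ran from -0.34 (FOSL1) to 0.17 (EGR1), with JUN and JUND in the middle at -0.10 each.

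**Figure D4:**
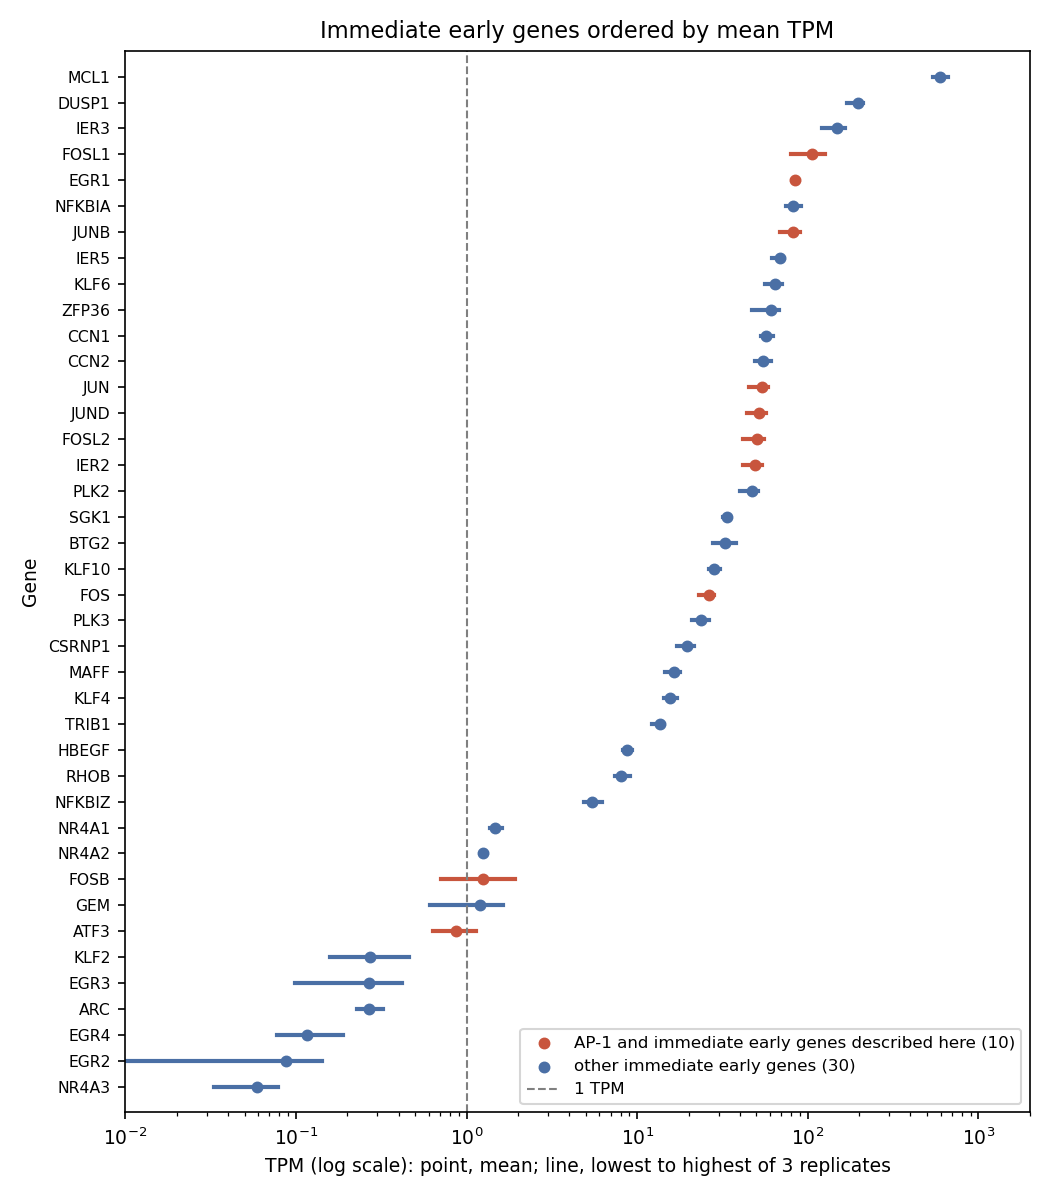
Mean TPM (points) and range over 3 replicates (lines) on a log axis for the 10 genes described here (red) and 30 other immediate early genes (blue), with the cutoff of 1 TPM dashed. FOSL1, EGR1 and JUNB stand near the top beneath MCL1, DUSP1 and IER3, while FOSB and ATF3 stand beside GEM at the cutoff, and the line of EGR2 runs off the axis because it was listed at 0 in replicate 2.

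AP-1 proteins also pair with other basic leucine zipper factors. Of a list of 16 genes for dimer partners and related factors of this class, 12 were at or above 1 TPM. ATF4, the factor of the integrated stress response, led at 491 ± 55.4 TPM, above every FOS and JUN gene, followed by NFE2L2 at 69.0 ± 5.63 TPM and ATF2, a partner of JUN on cAMP response elements, at 40.1 ± 5.49 TPM (SD, n = 3 each). BATF3 lay on both sides of the cutoff at 0.564, 1.10 and 0.568 TPM. BATF was listed at 0 in every replicate. Of the 14 tested, 9 were called against equal TPM and 4 after scaling, beside 54.3% and 31.2% of all genes tested.

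Of 21 serum response, CREB and MAP kinase genes that regulate immediate early genes, 20 were above the cutoff, as were 11360 protein-coding genes. RPS6KA1 (RSK1) was the highest at 99.7 ± 10.8 TPM, followed by the kinase MAP2K2 at 93.5 ± 11.9 TPM (SD, n = 3 each). RPS6KA5, a histone kinase downstream of MAP kinases, was the exception at 0.906 TPM. SRF, which binds the CArG box printed above for EGR1, was at 48.0 ± 5.35 TPM (SD, n = 3). In this list 19 of 21 were called against equal TPM and 6 after scaling, beside 54.3% and 31.2% of all genes tested.
Genes for the turnover of AU-rich mRNAs and of JUN and FOS proteins were above the cutoff in 10 of 10 cases. ZFP36L2 and ZFP36L1, which bind the nonamer printed above for FOS and FOSL2, were at 288 ± 25.3 and 183 ± 30.1 TPM, and KHSRP, another decay factor, at 255 ± 38.7 TPM (SD, n = 3 each). All 3 were above every FOS and JUN gene in the means. Of this list 8 were called against equal TPM and 5 after scaling, beside 54.3% and 31.2% of all genes tested.

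Of 16 textbook AP-1 target genes, 14 were at or above 1 TPM, led by AREG, an EGF receptor ligand, at 1769 ± 125 TPM, the protease inhibitor TIMP1 at 1029 ± 33.2 TPM and the hyaluronan receptor CD44 at 382 ± 42.3 TPM (SD, n = 3 each). The collagenase MMP1, often used as a reporter of AP-1, was on both sides of the cutoff at 1.26, 1.32 and 0.682 TPM. MMP3 (0.733, 0.509 and 1.11 TPM) and LIF (0.981, 1.67 and 1.04 TPM) were as well. The targets thus lay at either end of the range beside FOSL1 and the JUN genes. Of the 16 tested, 8 were called against equal TPM and 6 after scaling, beside 54.3% and 31.2% of all genes tested.

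Heat shock genes, like immediate early genes, can respond to the handling of cells. All 10 of the heat shock and handling list were above 10 TPM, with HSPA8 at 4641 ± 559, HSP90AA1 at 3008 ± 345 and HSPD1 at 740 ± 76.2 TPM (SD, n = 3 each). The inducible genes HSPA1A (58.1, 61.7 and 34 TPM) and HSPA1B (35.1, 33.2 and 17.2 TPM) were lower in replicate 3. They are near-identical copies whose reads the counting could have split. All 10 AP-1 and immediate early genes were lowest there too in the deposited TPM. After scaling, HSPA1A and HSPA1B had log2 ratios of -0.57 and -0.75. Those of FOSL1, FOSB, FOS and EGR1 were -0.34, -0.85, -0.04 and 0.17. HSPA1A and HSPA1B, named because of their values, had the lowest ratios of the list, whose median was -0.11. HSPB1 followed at -0.37, while HSPA8 was at -0.04, HSP90AA1 at -0.02 and HSPD1 at 0.05. Of the 10 genes, 9 were called against equal TPM and 7 after scaling, beside 54.3% and 31.2% of all genes tested. The test calls smaller differences in genes with more reads, such as HSPA8 with 62638 in replicate 1. The part of the heat shock genes in the values of the AP-1 genes was not tested.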

How the data were processed

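By the labels and the methods of the study, libraries were prepared from 300 ng of RNA depleted of ribosomal RNA (KAPA RNA HyperPrep with RiboErase), sequenced on a NextSeq system and processed with Seq2science on GRCh38.p14. The submitters' processing notes name STAR, fastp and MultiQC, while neither the annotation release nor strandedness of the counting is given in the sources used here. The authors deposited TPM values of 62754 genes in 3 replicates, genes at 0 included, and these were used as they are. No other column of values was present.

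GENCODE release 44 provided positions and lengths and lacked 54 genes. TPM times length, divided by its smallest value above 0, gave reads. As the length, the longest transcript with 1 base less per exon returned whole numbers. The 10 genes and 12 lists with 123 genes were chosen with earlier results of these data known. From each list the text names the 3 genes with the highest mean and those with replicates on both sides of 1 TPM, and others are named after their values were seen. Of these genes, 1 is not reported here. Marker lists are given by counts and sums. Spread was the SD of log2(TPM + 1). Intervals cover counting error only. Alternatives covered the cutoff, the median of replicates, the pseudocount, the read minimum, mitochondrially encoded genes, protein-coding totals, scaling, canonical lengths and leaving out each replicate. The scripts were tested on simulated data. Scripts ran under Python 3.11.15. They used scipy 1.17.1 for tests, numpy 2.4.6 and pandas 2.3.3 for tables, and matplotlib 3.10.9 for plots.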

Additional observations from a re-analysis of the deposited data

How the results depend on the processing

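No paired analysis was possible because only 1 condition was sequenced. The number of the 10 genes whose replicates differed, 7 as deposited, was 3 with median ratio scaling, 4 with protein-coding genes summing to 1000000, and from 1 (without replicate 3) to 8 (without replicate 2) when 1 replicate was left out. It was 1, FOSL1, without replicate 3 and with scaling, a setting added once the data had been seen. The median SD of 0.19 was 0.10 with protein-coding totals, 0.088 with median ratio scaling and from 0.038 (without replicate 3) to 0.25 (without replicate 2) with 1 replicate left out. Pairs of neighbours in the same order in every replicate numbered 5, and from 5 to 8 (without replicate 3), where fewer replicates must match. With canonical lengths, chosen after seeing the data, they numbered 6 and IER2 moved above JUN. The count at or above 1 TPM stayed between 8 and 10, the 8 arising at a cutoff of 2 TPM and without replicate 1, where FOSB fell below 1 TPM, and that of other immediate early genes between 21 and 24. The FOS over JUN ratio lay between 0.941 and 1.01. Of the 10 mean levels, 7 moved by more than 1 SD with canonical lengths, 6 with protein-coding totals and 1, EGR1, without mitochondrially encoded genes. The causes were not tested. Depth limits ATF3, whose intervals span the cutoff in every replicate, and FOSB in replicates 2 and 3.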
